A study of Mus musculus with 32 samples.

Results

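Injured spinal cord given Nkx6.1 was compared with injured control cord at 3 days, as measured by bulk RNA-seq of 6 libraries out of the 32 in the series. The 3 Nkx6.1 libraries and the 3 injured control libraries were taken by their labelled treatment and time, and no measured value entered the choice. All came from C57BL/6J mice of 8 to 12 weeks, and both groups carried a spinal cord injury, so the comparison is of one treatment with another within injured cord. The labels do not state what the control treatment held, how Nkx6.1 was carried, or whether each library came from its own animal. The p-values below therefore measure only the spread among the libraries, which may be technical. The series also holds Gsx1, another homeobox factor, at 3 days, Nkx6.1 and injured control at 35 days (n = 3 and 4), and uninjured sham cord. The tissue was the segment of cord that spans the lesion, and the title of the series concerns recovery of locomotion under Gsx1.

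Nkx6.1 is a homeodomain transcription factor of the ventral neural tube. There it works largely as a repressor, under the control of Sonic hedgehog, and sets the progenitors that give motor neurons and ventral interneurons. In the first days after a cord injury, resident microglia and incoming macrophages engulf dying cells and myelin, digest them in lysosomes, and store or export the cholesterol that myelin leaves. Astrocytes around the lesion become reactive, and neurons near it are lost or lower their synaptic genes.

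Total counts were 12.9, 14.8 and 18.1 M in the Nkx6.1 libraries and 12.9, 15.9 and 12.5 M in the controls. The defining markers of spinal cord were present in all 6 libraries, and levels below are CPM, counts per M counts after TMM scaling. Snap25, a synaptic membrane fusion protein, had 506, 491 and 1292 CPM in Nkx6.1 replicates 1, 2 and 3, against 1161, 1379.6 and 1141 CPM in the controls. Cd68, a phagocyte glycoprotein, had 345, 369.9 and 179.7 CPM in Nkx6.1 libraries, against 201, 113 and 97.7 CPM in controls. Nkx6.1 replicate 3 lay within the range of the controls for both genes, while replicates 1 and 2 lay outside it. Xist, the RNA that coats the silent X, had 0.154, 0.336 and 1.35 CPM in Nkx6.1 libraries, against 778, 0.437 and 2.23 CPM in controls, so control replicate 1 alone was high. Ddx3y, a gene of the Y chromosome, had 90.6, 94.8 and 75.4 CPM in Nkx6.1 libraries, against 0.755, 91.5 and 88.7 CPM in controls. Control replicate 1 thus had the levels of a female sample, and the other libraries those of male samples. The groups were not matched in these sex-linked genes. H2-Bl, a histocompatibility gene, had 1.85, 1.95 and 29.7 CPM in Nkx6.1 libraries, against 16.3, 11.3 and 17.5 CPM in controls. Rpl29, a ribosomal protein gene, had 146, 193 and 169 CPM in Nkx6.1 libraries, against 142, 114 and 13.3 CPM in controls. Summed skeletal muscle markers stood at 10.7, 779 and 8.35 CPM in Nkx6.1 libraries, against 34.8, 6.24 and 379 CPM in controls. With Xist as a covariate edgeR called 135 genes in the comparison below, and with H2-Bl and Rpl29 as covariates 4, against 55 without them. The part of the muscle genes was examined only by leaving out libraries.

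**Figure D1:**
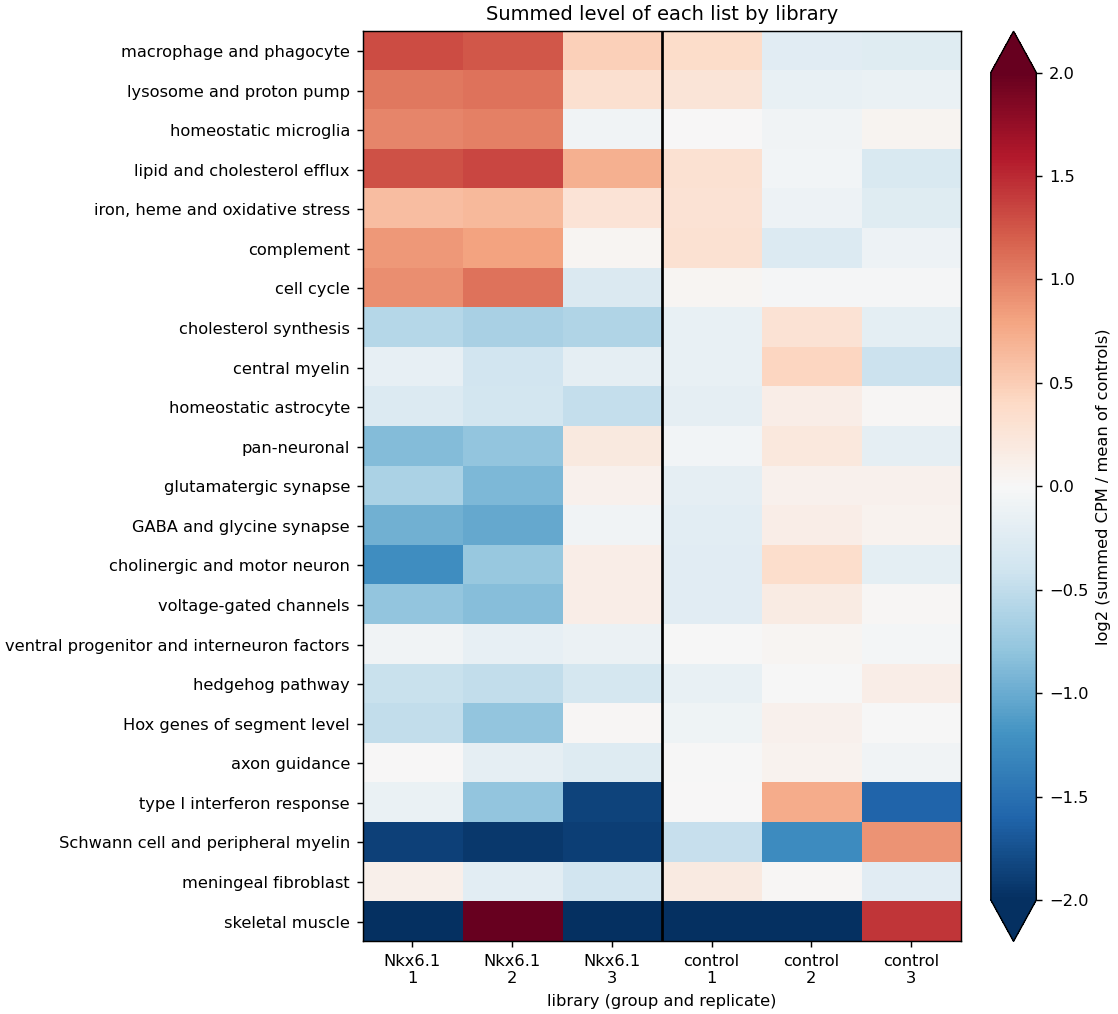
Summed CPM of each gene list in each of the 6 libraries (columns, group and replicate), as log2 of the sum over the mean of the 3 controls (color, clipped at -2 and 2). Nkx6.1 replicates 1 and 2 stand apart from replicate 3 in the phagocyte, cell cycle and neuron lists, while the cholesterol synthesis list is low in all 3 Nkx6.1 libraries.

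The delivered factor was measured first, through the mouse gene. Nkx6-1 (minus strand of chromosome 5, bases 101658139 to 101664996, GRCm38) had 3.62, 6.11 and 5.71 CPM in Nkx6.1 libraries, from 47, 91 and 106 counts, and 7.55, 8.98 and 7.00 CPM in controls, from 100, 144 and 91 counts. Every Nkx6.1 library was below every control library. The log2 fold change was -0.60 ± 0.23 (SE) and did not pass the threshold in edgeR's quasi-likelihood test (Benjamini-Hochberg adjusted p = 0.176). The mouse gene was thus not higher in the libraries labelled Nkx6.1. Whether reads of a delivered copy were counted on it was not tested, so its level does not check the labels.

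Of 16314 genes tested in one edgeR fit over all 32 libraries, 55 were called at an adjusted p under 0.05 (0.337%), 24 higher (0.147%) and 31 lower (0.19%) in Nkx6.1 cord. The 24 include genes known from phagocytes and lysosomes, and the 31 include transporters and receptors known from astrocytes, enzymes of lipid synthesis and Shh. Of the called genes, 7 were at least 2 times higher and 11 at least 2 times lower. Fold changes of the genes called lower ran from -2.96 to -0.42 on the log2 scale, and of those called higher from 0.47 to 1.69. In all 55 the CPM of the groups did not overlap, which held for 18.1% of all genes tested. At an unadjusted p under 0.05, 2984 genes stood out (18.3%), 1545 higher (9.47%) and 1439 lower (8.82%).

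The number of calls rested on single libraries. Without Nkx6.1 replicate 3 it was 2571 of 16500 genes tested, 1102 higher and 1469 lower. Counts of list members called without that replicate, given below, are to be read against these shares of all genes. Without control replicate 1 it was 235, and without Nkx6.1 replicate 1 or 2 it was 7 or 6. Without control replicate 2 or 3, edgeR called 0 genes, with 1660 and 2132 at an unadjusted p under 0.05. Of these, 849 and 1174 were higher and 811 and 958 lower, of 16501 and 16508 genes tested. Without Nkx6.1 replicate 1 such genes were 1054 higher and 952 lower of 16513, and without Nkx6.1 replicate 2 770 and 741 of 16484. Counts of list members at an unadjusted p in these fits, given below, are to be read against these shares. A fit over the 6 libraries alone called 1 gene (Gm5506, named after its value was seen), and a fit over the libraries at 3 days called 0, with 3068 at an unadjusted p under 0.05. DESeq2 over all libraries called 462. All 55 genes kept their sign in the 6 fits that left out 1 library. Since the groups do not overlap in any of the 55, this outcome was all but fixed in advance and does not measure stability. The calls of 4 genes (Ak4, Slc15a2, Slc43a2 and Slc5a11) held in 4 of the 6 fits, more than for any other gene.

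**Figure D2:**
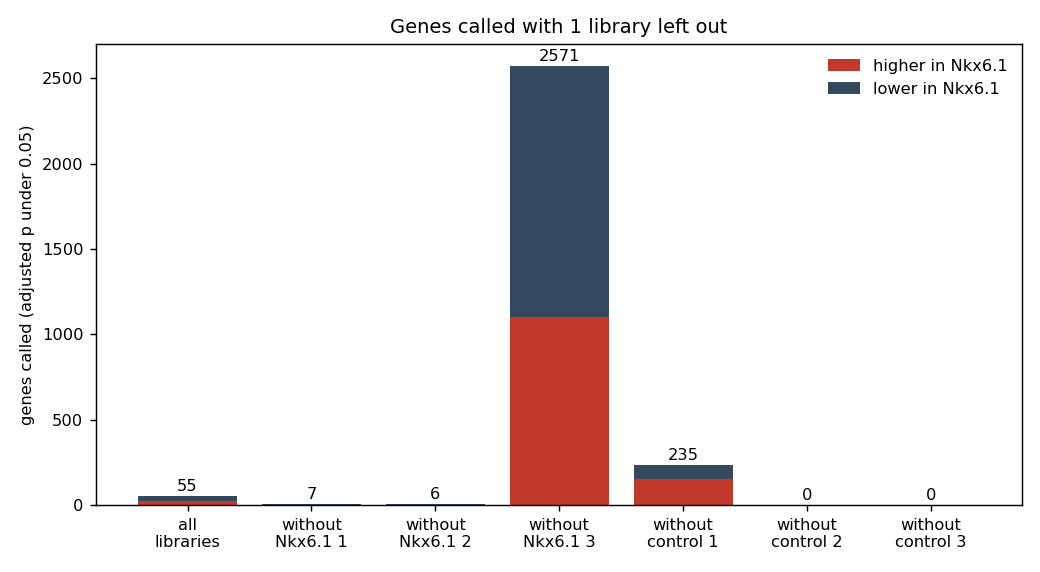
Number of genes called (y axis, adjusted p under 0.05) with all libraries and with each of the 6 libraries left out of the fit (x axis), split into genes higher and lower in Nkx6.1 cord. The count is 55 with all libraries and ranges from 0 to 2571 when 1 is left out.

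The genes that rose include several of engulfment, iron handling and lysosomal digestion. Hfe (chromosome 13, 23702034 to 23710854, minus strand), an MHC-like protein of iron sensing, had 30.0, 33.4 and 18.3 CPM in Nkx6.1 cord, against 9.44, 6.49 and 9.47 CPM in controls and a mean of 4.56 ± 1.51 CPM (SD, n = 3) in sham cord. It was the largest rise among the called genes, at 1.69 ± 0.36 (log2, SE, edgeR adjusted p = 0.0471). Mertk, a receptor tyrosine kinase by which phagocytes take up apoptotic cells and myelin, had 108, 98.3 and 82.9 CPM in Nkx6.1 libraries, against 59.4, 34.9 and 42.6 CPM in controls. It rose by 1.08 ± 0.24 (log2, SE, edgeR adjusted p = 0.0486). Inpp5d, the phosphatase SHIP1 of blood-lineage cells and microglia, had 157, 177 and 106 CPM in Nkx6.1 libraries, against 77.2, 54.5 and 64.0 CPM in controls, a rise of 1.17 ± 0.25 (log2, SE, edgeR adjusted p = 0.0471). In all 3 genes Nkx6.1 replicate 3 was the lowest of its group and still above every control.

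Abcc3, an exporter of organic anions and conjugates, had 118, 122 and 76.0 CPM in Nkx6.1 libraries, against 53.8, 24.3 and 34.4 CPM in controls, a rise of 1.49 ± 0.33 (log2, SE). Adap2, a GTPase-activating protein for Arf6, had 46.4, 46.3 and 33.7 CPM in Nkx6.1 libraries, against 22.7, 12.4 and 17.5 CPM in controls, a rise of 1.27 ± 0.25 (log2, SE). Rab3il1, an exchange factor for Rab GTPases, Rnpep, an aminopeptidase, and Tmem104 rose by 1.10, 0.72 and 0.71 on the log2 scale. Slc43a2, a transporter of large neutral amino acids, followed another order: it had 264, 245 and 367 CPM in Nkx6.1 libraries, against 175, 170.0 and 158 CPM in controls, with replicate 3 the highest. Its rise was 0.80 ± 0.15 (log2, SE, edgeR adjusted p = 0.0304). Zfand4, an AN1-type zinc finger protein, rose by 1.09 and also had its highest level in replicate 3, at 14.9 CPM against 10.8 and 8.80 CPM in the other Nkx6.1 libraries. Of the 24 genes that rose, replicate 3 was the lowest Nkx6.1 library in 18 and the highest in 4.

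**Figure D3:**
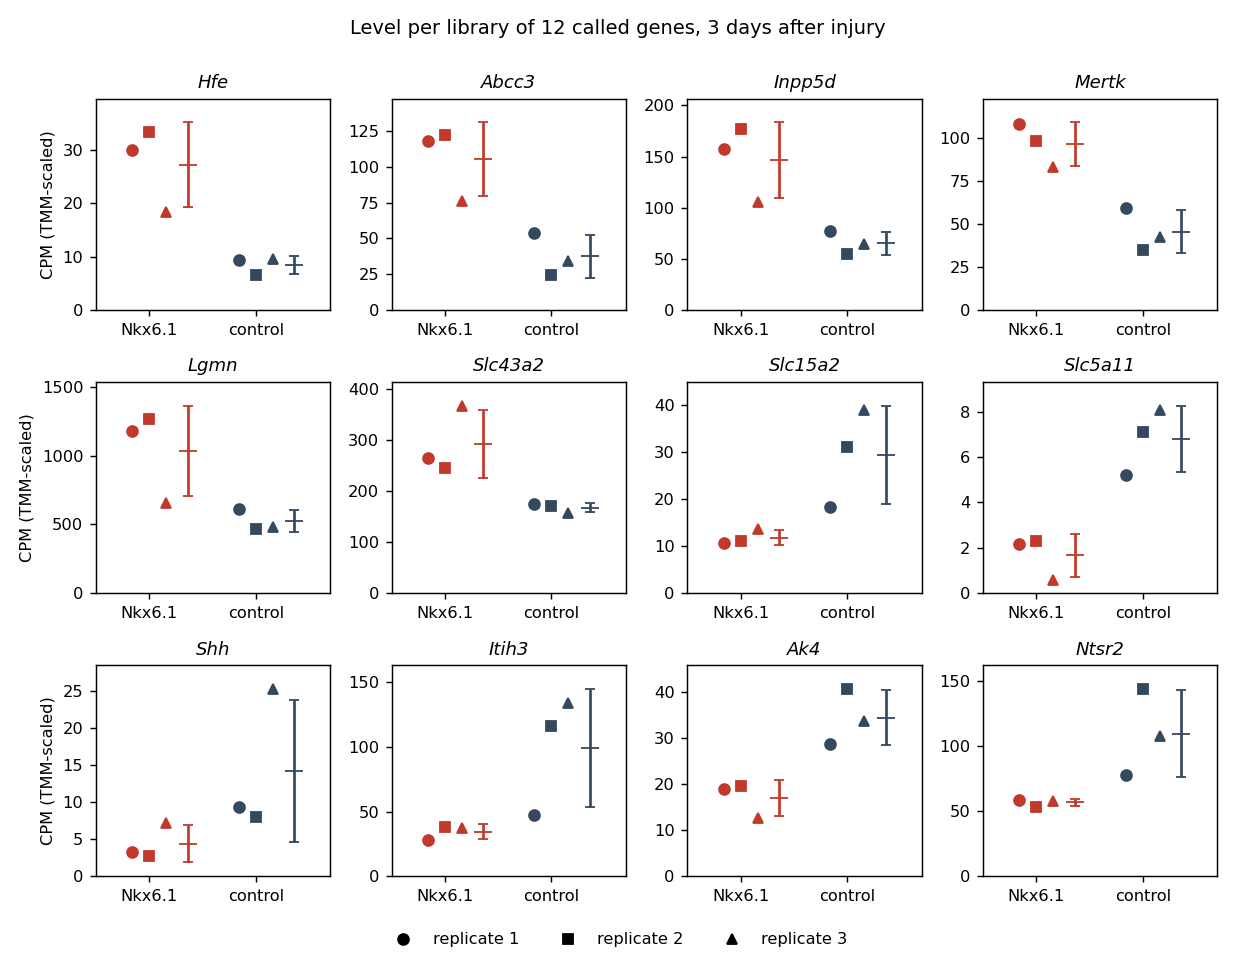
CPM per library (y axes, from 0) of 12 called genes in Nkx6.1 (left, red) and injured control (right, dark) cord at 3 days, with symbols for the replicate and bars for mean ± SD (n = 3). The groups do not overlap in any of the 12; Nkx6.1 replicate 3 is nearest to the controls in Hfe, Abcc3, Inpp5d, Mertk, Lgmn, Slc15a2 and Shh and farthest from them in Slc43a2, Slc5a11 and Ak4.

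Lysosomal proteins were among the rises. Lgmn (chromosome 12, 102394084 to 102439813, minus strand), the asparaginyl endopeptidase legumain, had 1179.6, 1268 and 658 CPM in Nkx6.1 libraries, against 614, 468 and 484 CPM in controls, a rise of 0.99 ± 0.21 (log2, SE, edgeR adjusted p = 0.0413). Psap, the precursor of the saposins that help to break down sphingolipids, had 4870.3, 5070.3 and 3473 CPM in Nkx6.1 libraries, against 3132, 2426 and 2271 CPM in controls, a rise of 0.78 ± 0.17 (log2, SE, edgeR adjusted p = 0.0434). Clcn7, the chloride-proton exchanger of the lysosomal membrane, had 104, 104 and 85.9 CPM in Nkx6.1 libraries, against 71.4, 73.2 and 62.0 CPM in controls. It rose by 0.50 on the log2 scale. Of the 15 genes of the lysosome and proton pump list, 1 was called (Lgmn), 11 had an unadjusted p under 0.05 with a positive fold change, where 9.47% of all genes did, and all 15 fold changes were positive. The median was 0.73 (log2) against -0.0029 over all genes tested. Ctsd, the aspartic protease cathepsin D, had 6898, 6821 and 4019 CPM in Nkx6.1 libraries, against 3270.0, 2333 and 2343 CPM in controls, and was not called. Without Nkx6.1 replicate 3 the list's median was 0.93 and 11 members were called higher. Without Nkx6.1 replicate 2 it was 0.46, with 0 called by edgeR and 5 at an unadjusted p under 0.05. Atp6v1a, a subunit of the proton pump, had 369, 373 and 371 CPM in Nkx6.1 libraries, against 344, 391 and 365 CPM in controls, with overlap.

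Lysosomal genes often carry an E-box-like element read by TFEB and its relatives, so promoters of 300 bases (250 before the start and 50 after it, RefSeq, GRCm38.p6) were searched for its core TCACGTGA, a palindrome that reads the same on both strands. It was present in 3 of the 12 lysosome list genes with a promoter in the table (Ctsd, Atp6v1a and Atp6v0d1), in 2 of 21 genes called higher (Clcn7 and Sephs2), in 0 of 23 called lower, and in 1.01% of 27025 genes. The promoters of Clcn7 (chr17:25133141-25133440, plus strand, 1 of 2 starts listed) and Ctsd (chr7:142387778-142388077, minus strand) are shown because their genes are described above, with the match in capitals.
Clcn7: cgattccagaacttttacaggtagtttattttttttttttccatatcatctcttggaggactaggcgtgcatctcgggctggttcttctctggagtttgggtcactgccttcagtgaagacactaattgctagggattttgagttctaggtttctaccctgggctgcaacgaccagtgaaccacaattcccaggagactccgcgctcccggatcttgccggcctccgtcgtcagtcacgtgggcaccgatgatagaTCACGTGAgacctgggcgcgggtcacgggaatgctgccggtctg
Ctsd: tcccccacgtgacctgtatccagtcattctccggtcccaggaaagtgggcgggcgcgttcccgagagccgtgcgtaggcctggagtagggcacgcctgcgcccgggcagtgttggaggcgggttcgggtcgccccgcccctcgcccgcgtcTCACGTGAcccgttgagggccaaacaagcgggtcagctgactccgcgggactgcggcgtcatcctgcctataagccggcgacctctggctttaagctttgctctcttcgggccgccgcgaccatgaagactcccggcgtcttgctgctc
The match began 6 bases after the annotated start in Clcn7 and 99 bases before it in Ctsd.

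Macrophage genes stood higher in Nkx6.1 libraries without a call. Of 20 macrophage and phagocyte genes, 0 were called by edgeR, 14 had an unadjusted p under 0.05 with a positive fold change and 0 with a negative one, and the median was 1.12 (log2). Lyz2, the lysozyme of myeloid cells, had 2602, 2768 and 2067 CPM in Nkx6.1 libraries, against 1153, 499.7 and 861 CPM in controls. Apoe, the lipid carrier of glia and macrophages, had 6174, 6582 and 4558 CPM in Nkx6.1 libraries, against 3052, 2418 and 1841 CPM in controls. In both genes the groups did not overlap, and the summed list stood at 32005, 30693 and 18046 CPM in Nkx6.1 libraries against 16808, 11117 and 11039 CPM in controls. Without Nkx6.1 replicate 3 the median was 1.38 and 12 members were called higher. Without Nkx6.1 replicate 2 it was 0.92, with 0 called by edgeR and 11 at an unadjusted p under 0.05. In bulk tissue, more cells of a type and more RNA per cell cannot be told apart.

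Of 12 genes of lipid and cholesterol efflux and storage, 7 had an unadjusted p under 0.05 with a positive fold change and 1 with a negative one, and 0 were called. The median was 0.52 (log2), or 0.82 with 7 called higher and 1 lower without Nkx6.1 replicate 3. Without Nkx6.1 replicate 1 it was 0.35, with 0 called by edgeR and 5 higher at an unadjusted p under 0.05. Plin2, the coat protein of lipid droplets, had 535, 529 and 223 CPM in Nkx6.1 libraries, against 227, 110.4 and 119 CPM in controls, so replicate 3 fell among the controls. Abca1, the cholesterol exporter, had 556, 546 and 298 CPM in Nkx6.1 libraries, against 286, 207 and 287 CPM in controls. Of 15 genes of iron, heme and oxidative stress, 5 were so higher and 1 lower, 0 were called, and 9 had groups that did not overlap with Nkx6.1 above, against 9.49% of all genes. Hmox1, which breaks down heme, had 718, 998 and 431 CPM in Nkx6.1 libraries, against 341, 139 and 227 CPM in controls. Ftl1, a ferritin light chain with near-identical copies that counting may not tell apart, had 3361, 3678 and 2539.8 CPM in Nkx6.1 libraries, against 2027, 990.4 and 1094 CPM in controls. The iron list's median was 0.40, or 0.46 with 4 members called higher without Nkx6.1 replicate 3. Without control replicate 3 it was 0.27, with 0 called by edgeR and 4 higher at an unadjusted p under 0.05. Of 13 complement genes, 5 had an unadjusted p under 0.05 with a positive fold change and 0 were called. The complement median of 0.06 turned to -0.01 without Nkx6.1 replicate 2 and to -0.02 without control replicate 2, and was 0.23 without Nkx6.1 replicate 3 and 0.44 without control replicate 1.

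Summed microglial and cell cycle genes were highest in Nkx6.1 replicates 1 and 2. Single genes departed from this: Sall1, a transcription factor of microglia, had 68.0, 62.5 and 39.4 CPM in Nkx6.1 libraries, against 63.3, 73.7 and 78.8 CPM in controls. Fcrls, an Fc receptor-like protein of mouse microglia, had 293, 263 and 23.2 CPM in Nkx6.1 libraries, against 29.2, 19.7 and 8.24 CPM in controls. Tmem119, a microglial membrane protein, had 71.3, 80.6 and 45.1 CPM in Nkx6.1 libraries, against 39.0, 39.7 and 36.6 CPM in controls, without overlap. Of 12 homeostatic microglia genes, 0 were called, and 6 had an unadjusted p under 0.05 with a positive fold change and 1 with a negative one. The median of 0.59 (log2) became 0.82 with 7 called higher without Nkx6.1 replicate 3. It became 0.44 without Nkx6.1 replicate 2, with 0 called by edgeR and 3 higher and 1 lower at an unadjusted p under 0.05. All 22 cell cycle genes had positive fold changes, 8 with an unadjusted p under 0.05, and 0 were called. Pcna, the sliding clamp of DNA replication, had 135, 144 and 56.8 CPM in Nkx6.1 libraries, against 76.0, 70.6 and 65.6 CPM in controls, and 0 of the 22 genes had groups that did not overlap. The cell cycle median was 0.70, and without Nkx6.1 replicate 3 it was 1.03 with 9 called higher. Without Nkx6.1 replicate 2 it was 0.45, with 0 called by edgeR and 1 gene at an unadjusted p under 0.05. That 1 of 22 lay near the share over all genes in that fit, 770 of 16484 higher.

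**Figure D4:**
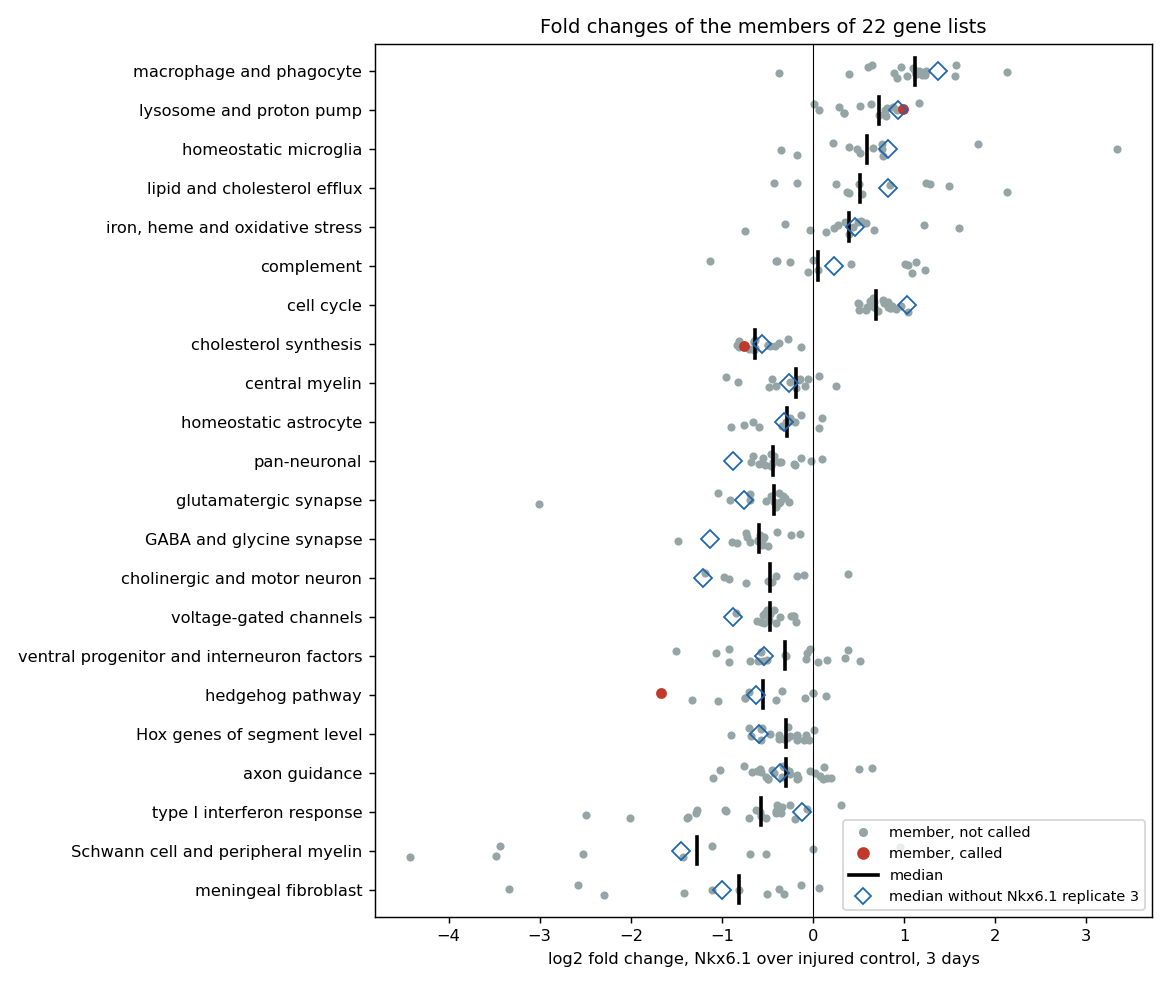
Log2 fold change (x axis, Nkx6.1 over injured control at 3 days) of each tested member of 22 gene lists (rows), with the list's median (black bar) and its median without Nkx6.1 replicate 3 (open diamond). The neuron and cell cycle medians move away from 0 without that replicate, the cholesterol synthesis median hardly moves (-0.64 and -0.56), and the called members are Lgmn, Cyp51 and Shh.

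The genes that fell hold transporters and a receptor that are known from astrocytes in the mouse. Slc15a2 (chromosome 16, 36750177 to 36784962, minus strand), the peptide transporter PEPT2, had 10.7, 11.1 and 13.6 CPM in Nkx6.1 libraries, against 18.3, 31.0 and 39.0 CPM in controls. It fell by 1.31 on the log2 scale (SE 0.20) and had the smallest adjusted p of all genes (edgeR, 0.00755). Ntsr2, a neurotensin receptor, had 58.8, 53.5 and 58.1 CPM in Nkx6.1 libraries, against 77.3, 144 and 107 CPM in controls, a change of -0.95 ± 0.18 (log2, SE, edgeR adjusted p = 0.0310). Slc7a10, a transporter of small neutral amino acids, had 51.4, 76.5 and 61.9 CPM in Nkx6.1 libraries, against 100.3, 136 and 127 CPM in controls. In these 3 genes all Nkx6.1 libraries were low, replicate 3 among them. Of 12 homeostatic astrocyte genes, 0 were called, 5 had an unadjusted p under 0.05 with a negative fold change, where 8.82% of all genes did, and the median was -0.29. Kcnj10, the potassium channel Kir4.1, had 849, 790.4 and 939.5 CPM in Nkx6.1 libraries, against 1221, 1545 and 1596 CPM in controls, without overlap. Gja1, the gap junction protein connexin 43, had 478, 376 and 345 CPM in Nkx6.1 libraries, against 501, 661 and 654 CPM in controls. Without Nkx6.1 replicate 3 the list's median was -0.32 with 4 called lower. Without control replicate 2 it was -0.21, with 0 called by edgeR and 2 at an unadjusted p under 0.05. Control replicate 1 was the control nearest to the Nkx6.1 libraries in 45 of the 55 called genes.

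Other falls were of solute transport, metabolism and neuronal membranes. Slc5a11, a sodium-coupled inositol transporter, had 2.16, 2.28 and 0.592 CPM in Nkx6.1 libraries, against 5.21, 7.11 and 8.08 CPM in controls, a change of -2.04 ± 0.37 (log2, SE, edgeR adjusted p = 0.0304). Ak4, a mitochondrial adenylate kinase, had 18.9, 19.5 and 12.7 CPM in Nkx6.1 libraries, against 28.8, 40.7 and 33.9 CPM in controls, a change of -1.02 ± 0.18 (log2, SE, edgeR adjusted p = 0.0300). Both were lowest in Nkx6.1 replicate 3. Itih3, an inter-alpha-trypsin inhibitor chain that binds hyaluronan, had 27.8, 38.5 and 37.3 CPM in Nkx6.1 libraries, against 47.8, 116 and 134 CPM in controls, a change of -1.52 ± 0.30 (log2, SE). Ddn, the dendritic protein dendrin, fell by 2.96 on the log2 scale (SE 0.67), with 0.770, 0.672 and 1.83 CPM in Nkx6.1 libraries against 4.68, 5.43 and 16.2 CPM in controls. Pcdhb8, a clustered protocadherin whose reads may be shared with its near-identical neighbors, fell by 2.06 on the log2 scale. Slc30a10, a manganese exporter, Tst, the sulfurtransferase rhodanese, Tdrd6, a tudor domain protein of germ cells, and Tlcd1, a regulator of membrane fluidity, fell by 1.28, 1.11, 1.38 and 1.02 on that scale.

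Genes of cholesterol synthesis were low in all 3 Nkx6.1 libraries, replicate 3 among them. Cyp51 (chromosome 5, 4081145 to 4104746, minus strand), the lanosterol demethylase, had 99.3, 95.8 and 92.3 CPM in Nkx6.1 libraries, against 136, 207 and 141 CPM in controls. It fell by 0.75 on the log2 scale (SE 0.17, edgeR adjusted p = 0.0488). Of the 17 genes of the list, 1 was called (Cyp51), 14 had an unadjusted p under 0.05 with a negative fold change, and all 17 fold changes were negative. The groups did not overlap in 13 of the 17, with Nkx6.1 lower, against 8.59% of all genes. The median was -0.64, and -0.56 with 6 called lower without Nkx6.1 replicate 3. Without control replicate 2 it was -0.46, with 0 called by edgeR and 8 at an unadjusted p under 0.05. Hmgcs1, which makes HMG-CoA early in the pathway, had 327, 272 and 256 CPM in Nkx6.1 libraries, against 432, 634 and 430.2 CPM in controls. The 3 Nkx6.1 libraries summed to 1346, 1277 and 1313 CPM over the list, against 1797, 2443 and 1751 CPM in controls, so control replicate 2 was the highest and the Nkx6.1 libraries lay close together. In sham cord the sum was 3456, 2936 and 3004 CPM, above every injured library at 3 days. Among the other genes called lower, Scd1, a fatty acid desaturase, had 499, 492 and 459.7 CPM in Nkx6.1 libraries, against 644, 932 and 865 CPM in controls, and Mid1ip1, a regulator of lipid synthesis, also fell.

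Sterol genes are driven by SREBP2, which binds sterol regulatory elements beside CCAAT boxes bound by NF-Y, so the same promoters were searched for TCACNCCAC and for CCAAT on both strands. CCAAT was found in 10 of the 11 list genes with a promoter in the table, in 9 of 21 genes called higher, in 10 of 23 called lower, and in 37.9% of all genes. TCACNCCAC was found in 1 of the 11 (Hmgcs1), in 1 of the 23 called lower (Itih3), and in 1.22% of all genes. The promoters of Cyp51 (chr5:4104648-4104947, minus strand), with its CCAAT match in capitals, and Hmgcs1 (chr13:119690101-119690400, plus strand), with its TCACNCCAC match in capitals, are shown because Cyp51 is the called member and Hmgcs1 holds the sterol element.
Cyp51: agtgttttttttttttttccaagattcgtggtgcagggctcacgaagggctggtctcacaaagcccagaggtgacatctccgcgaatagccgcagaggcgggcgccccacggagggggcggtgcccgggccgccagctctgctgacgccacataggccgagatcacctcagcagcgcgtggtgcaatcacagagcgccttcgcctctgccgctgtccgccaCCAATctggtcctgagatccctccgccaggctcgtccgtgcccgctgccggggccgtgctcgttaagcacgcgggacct
Hmgcs1: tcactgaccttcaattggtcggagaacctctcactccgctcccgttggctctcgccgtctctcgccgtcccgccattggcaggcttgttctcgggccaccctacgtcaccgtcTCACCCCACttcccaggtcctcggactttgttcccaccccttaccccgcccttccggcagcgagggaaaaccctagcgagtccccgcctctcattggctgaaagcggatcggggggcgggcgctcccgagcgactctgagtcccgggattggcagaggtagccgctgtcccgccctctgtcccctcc
TAATTA, the core of many homeodomain sites, searched on both strands, was in 0 of 21 promoters of genes called higher, in 1 of 23 of those called lower (Insc, a protein of spindle orientation), and in 5.31% of all genes.

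Hedgehog signalling and ventral factors are the developmental setting of Nkx6.1. Shh (chromosome 5, 28456815 to 28467256, minus strand), the ligand that patterns the ventral cord, had 3.31, 2.69 and 7.22 CPM in Nkx6.1 libraries, against 9.36, 7.99 and 25.2 CPM in controls, and 10.4 ± 1.59 CPM (SD, n = 3) in sham cord. It fell by 1.67 on the log2 scale (SE 0.37, edgeR adjusted p = 0.0471), and by 0.95 without control replicate 3, its highest library, where it was not called. Shh was low in Gsx1 cord too, at 6.07 ± 1.58 CPM (SD, n = 3), or -1.22 (log2) against the same controls, without a call. Nkx6.1 against Gsx1 gave -0.45 ± 0.37 (log2, SE, edgeR adjusted p = 0.567), so the fall was not shown to be particular to Nkx6.1. Of 12 hedgehog pathway genes, 4 had an unadjusted p under 0.05 with a negative fold change, 1 of them called (Shh), and the median was -0.55. Gli1, a transcription factor and target of the pathway, had 1.69, 2.42 and 1.45 CPM in Nkx6.1 libraries, against 4.83, 3.56 and 5.62 CPM in controls. Hhip, an antagonist that binds the ligand, had 17.6, 12.0 and 21.4 CPM in Nkx6.1 libraries, against 27.2, 49.0 and 28.6 CPM in controls. Cdon, a co-receptor, had 9.16, 8.53 and 8.73 CPM in Nkx6.1 libraries, against 14.4, 14.2 and 14.2 CPM in controls. In these 3 genes every Nkx6.1 library was below every control, but none was called. The transducer Smo had 57.8, 59.3 and 65.4 CPM in Nkx6.1 libraries, against 60.3, 55.9 and 77.7 CPM in controls, with overlap.

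Of 19 ventral progenitor and interneuron factors tested, 0 were called, and 4 had an unadjusted p under 0.05 with a negative fold change (Irx3, Nkx6-1, Lhx4 and En1). The median was -0.30, or -0.54 with 5 called lower without Nkx6.1 replicate 3. Without control replicate 3 it was -0.25, with 0 called by edgeR and 4 lower at an unadjusted p under 0.05. Irx3, a homeobox factor of ventral progenitors, had 5.24, 6.98 and 9.26 CPM in Nkx6.1 libraries, against 10.5, 10.8 and 9.31 CPM in controls. En1, of V1 interneurons, had 1.46, 0.739 and 2.05 CPM in Nkx6.1 libraries, against 2.87, 2.50 and 2.77 CPM in controls. The motor neuron factor Mnx1 had 0.154, 0.336 and 1.02 CPM in Nkx6.1 libraries, against 0.680, 1.68 and 0.616 CPM in controls. Olig2, a factor of motor neuron and oligodendrocyte progenitors, had 94.0, 81.5 and 86.3 CPM in Nkx6.1 libraries, against 86.2, 81.0 and 85.2 CPM in controls.

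Genes of mature neurons were low in sum in Nkx6.1 replicates 1 and 2, while the sum in replicate 3 lay among the controls. Summed pan-neuronal markers stood at 4492, 4740.5 and 9394 CPM in Nkx6.1 libraries, against 7917, 9461 and 7215 CPM in controls. Across the 73 neuronal genes tested in the pan-neuronal, glutamatergic, GABA and glycine, cholinergic and channel lists, 0 were called by edgeR with all libraries, and 25 had an unadjusted p under 0.05, all with negative fold changes. The medians were -0.43, -0.43, -0.59, -0.47 and -0.48 (log2). Without Nkx6.1 replicate 3 they were -0.88, -0.76, -1.13, -1.21 and -0.88, with 11, 7, 12, 5 and 10 called lower. Without Nkx6.1 replicate 2 they were -0.26, -0.23, -0.39, -0.51 and -0.29, with 0 called by edgeR and 3 of the 73 genes at an unadjusted p under 0.05. Those 3 of 73 lay near the share over all genes in that fit, 741 of 16484 lower. Without Nkx6.1 replicate 1 the pan-neuronal median was -0.23 and the cholinergic one -0.20, and without control replicate 2 they were -0.28 and -0.24. Summed immature neuron genes went the other way, at 883, 903 and 757 CPM in Nkx6.1 libraries, against 775, 704 and 730.3 CPM in controls. Of those 9 genes 6 had positive fold changes and 0 were called, and the median of 0.16 turned to -0.02 without control replicate 1. Gad1, which makes GABA, had 38.2, 38.7 and 95.3 CPM in Nkx6.1 libraries, against 109, 102 and 97.2 CPM in controls. Gabra2, a GABA-A receptor subunit, had 33.2, 26.7 and 91.5 CPM in Nkx6.1 libraries, against 111, 149 and 165 CPM in controls. Slc5a7, the choline transporter of motor neurons, had 17.7, 18.2 and 30.4 CPM in Nkx6.1 libraries, against 38.3, 67.8 and 24.6 CPM in controls.

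Of 20 Hox genes that mark the level of the segment, 19 had negative fold changes, 5 with an unadjusted p under 0.05, and 0 were called. Their median was -0.30, and without Nkx6.1 replicate 3 it was -0.59 with 4 called lower. Without Nkx6.1 replicate 2 it was -0.16, with 0 called by edgeR and 0 at an unadjusted p under 0.05. Hoxc10, a gene of lumbar levels, had 35.1, 32.3 and 59.5 CPM in Nkx6.1 libraries, against 39.0, 53.7 and 58.4 CPM in controls. Hoxb7 had 8.93, 8.66 and 16.9 CPM in Nkx6.1 libraries, against 15.7, 22.1 and 17.8 CPM in controls, and in both genes Nkx6.1 replicates 1 and 2 were the lowest of the 6.

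Schwann cell genes were low in Nkx6.1 libraries and in Gsx1 libraries alike. Prx, periaxin of the Schwann cell myelin sheath, had 4.08, 5.71 and 14.1 CPM in Nkx6.1 libraries, against 55.4, 20.9 and 196 CPM in controls, without overlap. Its log2 fold change was -3.48 ± 1.12 (SE) and it was not called. Of 10 Schwann cell genes, 5 had an unadjusted p under 0.05 with a negative fold change and 1 with a positive one, 0 were called, and the median of -1.27 became -0.59 without control replicate 3, the highest library. The summed list stood at 225, 215 and 223 CPM in Nkx6.1 libraries, against 598, 347 and 1530.2 CPM in controls. In the 3 Gsx1 libraries the sum was 213, 316 and 309 CPM. The list's median was -1.43 for Gsx1 against the same controls and -0.05 for Nkx6.1 against Gsx1 (log2). Of 13 central myelin genes, 0 were called and the median was -0.18, with 5 at an unadjusted p under 0.05 and a negative fold change. That median was -0.0093 without control replicate 2, -0.33 without Nkx6.1 replicate 1 and -0.31 without control replicate 3. Among them Ugt8a, which makes the myelin lipid galactosylceramide, had 259, 182 and 99.1 CPM in Nkx6.1 libraries, against 299, 435 and 313 CPM in controls. Of 11 meningeal fibroblast genes, 5 had an unadjusted p under 0.05 with a negative fold change, 0 were called, and the median was -0.81, or -1.23 without control replicate 2. For Gsx1 against the same controls that median was -0.94, and for Nkx6.1 against Gsx1 -0.29. Slc6a13, a GABA transporter of the meninges, had 2.08, 1.54 and 1.51 CPM in Nkx6.1 libraries, against 11.5, 2.68 and 11.2 CPM in controls.

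Axon guidance and growth factor genes gave 0 calls. Of 30 axon guidance genes, 10 had an unadjusted p under 0.05 with a negative fold change and 2 with a positive one. The groups did not overlap with Nkx6.1 lower in 13, against 8.59% of all genes. Sema5a, a semaphorin, had 69.3, 59.6 and 80.7 CPM in Nkx6.1 libraries, against 141, 166 and 141 CPM in controls. Slit2, a midline repellent, had 14.9, 17.9 and 33.4 CPM in Nkx6.1 libraries, against 41.3, 39.5 and 54.6 CPM in controls. The list's median was -0.30, and -0.36 with 6 called lower and 2 higher without Nkx6.1 replicate 3. In that fit 1469 of all 16500 genes were called lower and 1102 higher, so the 2 higher lay near the share over all genes. Without Nkx6.1 replicate 2 the median was -0.24, with 0 called by edgeR and 6 at an unadjusted p under 0.05. Of 15 neurotrophic factors and receptors, 5 were so lower and 2 higher, with a median of -0.30. It was -0.14 without control replicate 3, -0.17 without Nkx6.1 replicate 1 or control replicate 1, and -0.43 without Nkx6.1 replicate 3. Vegfa, the vascular growth factor, had 44.1, 86.7 and 32.9 CPM in Nkx6.1 libraries, against 83.9, 134 and 96.8 CPM in controls, and was called without Nkx6.1 replicate 2. Hgf, the ligand of Met, had 12.1, 12.2 and 5.66 CPM in Nkx6.1 libraries, against 4.83, 5.05 and 3.77 CPM in controls.

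Type I interferon genes split both groups. Irf7, a regulator of the response, had 68.2, 37.1 and 9.43 CPM in Nkx6.1 libraries, against 90.3, 123 and 7.70 CPM in controls. Isg15, a ubiquitin-like effector, had 28.3, 14.6 and 2.96 CPM in Nkx6.1 libraries, against 27.3, 42.4 and 4.54 CPM in controls. Replicate 3 was low in both groups, and 1 of the 22 genes (Xaf1, with 23.9, 14.6 and 53.8 CPM in Nkx6.1 libraries against 143, 175 and 54.3 CPM in controls) had groups that did not overlap. Of the 22, 4 had an unadjusted p under 0.05 with a negative fold change and 0 were called. The median of -0.57 became -0.12 without Nkx6.1 replicate 3 and -1.39 without Nkx6.1 replicate 1. It was -0.14 without control replicate 2 and -0.998 without control replicate 3.

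Whether the difference at 3 days was unequal to that at 35 days was tested as an interaction. Its value is the log2 fold change at 3 days minus that at 35 days, over 3 and 4 other libraries at the later time. A gene not called for it is not shown to keep its difference at 35 days. edgeR called 376 genes (2.3%), 305 higher (1.87%) and 71 lower (0.435%). Nkx6.1 against injured control at 35 days alone gave 0 calls with edgeR and 2006 genes (12.3%) at an unadjusted p under 0.05. The 24 genes that rose at 3 days had log2 fold changes of -0.73 to 0.35 at 35 days, 20 of them negative, and the 31 that fell had -0.52 to 0.43, 16 of them positive. The share of all genes with either sign at 35 days was not taken, so these counts have no background beside them. Lyz2, at 3 days 1.57 (log2), stood at -1.33 at 35 days, an interaction of 2.89 ± 0.57 (SE, edgeR adjusted p = 0.0390). Thbs1, the matrix protein thrombospondin 1 that activates latent TGF-beta, had 882, 1106 and 311 CPM in Nkx6.1 libraries at 3 days, against 280.4, 86.8 and 223 CPM in controls, and at 35 days a log2 fold change of -1.22. Its interaction was 3.18 ± 0.74 (SE, edgeR adjusted p = 0.0390). Gadl1, a decarboxylase of acidic amino acids, and Foxb1, a forkhead factor, had interactions of -2.50 and -2.36. For the lists, the median at 3 and at 35 days was 1.12 and -0.85 for macrophages, 0.73 and -0.64 for lysosomes, and -0.64 and 0.14 for cholesterol synthesis. The count of the interaction was 0 without any one of Nkx6.1 replicate 1 or 2 at 3 days, control replicate 2 or 3 at 3 days, Nkx6.1 replicate 1 or 2 at 35 days, or control replicate 1 or 4 at 35 days. It was 3614 without Nkx6.1 replicate 3 at 3 days, 724 without control replicate 1 at 3 days, and 1924, 2315 and 672 without Nkx6.1 replicate 3 or control replicate 2 or 3 at 35 days.

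**Figure D5:**
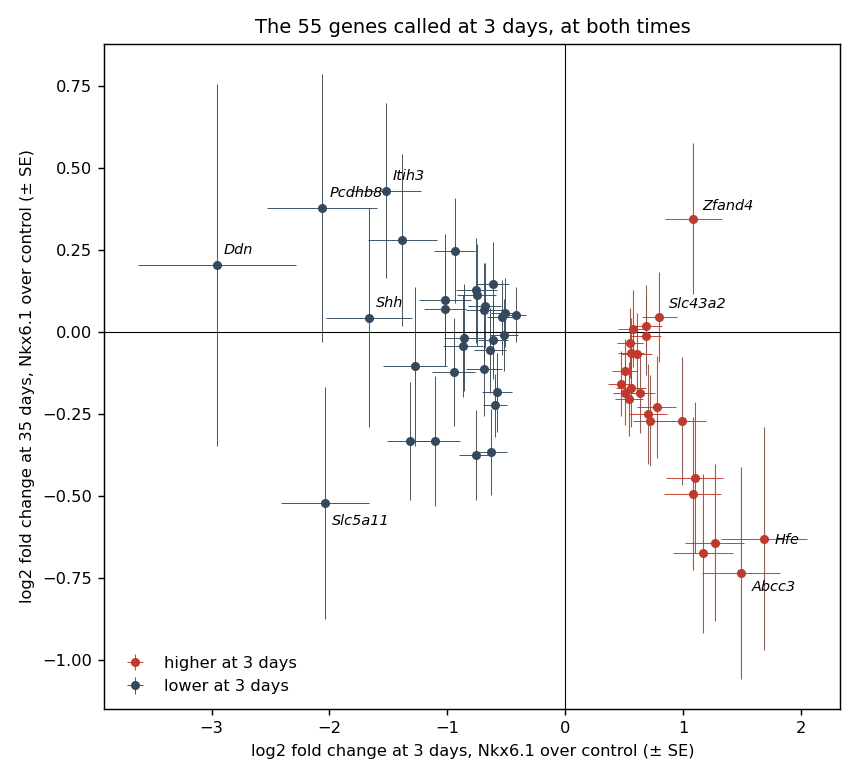
Log2 fold change (± SE) of Nkx6.1 over injured control at 3 days (x axis) and at 35 days (y axis) for the 55 genes called at 3 days. Of the 24 genes higher at 3 days, 20 lie below 0 at 35 days, and Zfand4 and Slc43a2 are among the 4 above it. The share of all genes below 0 at 35 days was not taken. The choice of genes fixes their place on the x axis only.

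Nkx6.1 was also set against Gsx1, the other factor delivered, at 3 days (n = 3 each). edgeR called 13 genes (0.0797%), 2 higher (0.0123%) and 11 lower (0.0674%) in Nkx6.1 cord. Slc15a2 averaged 11.8 ± 1.54 CPM in Nkx6.1 cord and 28.6 ± 6.32 CPM in Gsx1 cord (SD, n = 3 each) and differed by -1.27 ± 0.20 (log2, SE, adjusted p = 0.0119). Ntsr2, Slc5a11, Tst and Ak4 were called lower as well, at -0.98, -1.90, -1.10 and -0.92 on the log2 scale, and Zfand4 and Cd38, an enzyme that consumes NAD, were called higher, at 1.22 and 0.83. Slc25a18, a mitochondrial glutamate carrier, was called lower against Gsx1 at -1.004. Summed cholesterol synthesis genes stood at 1321, 1709.8 and 2152 CPM in the 3 Gsx1 libraries and summed macrophage genes at 21309, 12361 and 11994 CPM. Gsx1 replicate 1 thus lay near the Nkx6.1 libraries in the cholesterol sum. In the macrophage sum it lay within their range of 18046 to 32005 CPM and above every control. The homeostatic microglia median was 0.52 (log2) for Gsx1 against the same controls and 0.17 for Nkx6.1 against Gsx1. For the macrophage list these medians were 0.35 and 0.75. Gsx1 against the same controls gave 0 calls with edgeR and 338 genes (2.07%) at an unadjusted p under 0.05. Since the 3 control libraries or the 3 Nkx6.1 libraries enter more than one of these comparisons, their values are given side by side only. The count against Gsx1 was 1 without Nkx6.1 replicate 1 (Psd2, named after its value was seen), 1942 without Nkx6.1 replicate 3, 554 without Gsx1 replicate 1, and 0 without Nkx6.1 replicate 2 or Gsx1 replicate 2 or 3.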

How the data were processed

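The authors deposited raw read counts per gene symbol, not normalized, for 32 libraries. Per the submitters' processing notes, HISAT2, SAMtools, HTSeq and DESeq2 were used with mm10 or GRCm38, but no version or role is listed. The strand setting and the treatment of multiply matching reads are not stated there, so counts of overlapping, antisense and near-identical genes are uncertain. The table holds 23420 genes, 2504 at 0 in all libraries, and 0 columns are without a sample.

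edgeR 4.0.16 (R 4.3.3) was run on the counts with TMM scaling and filterByExpr at 10 counts per library and 15 in total, keeping 16314 genes. All 10 groups entered one quasi-likelihood fit without covariates (22 residual and 4.4 prior degrees of freedom, biological coefficient of variation 20.8%). Calls are at a Benjamini-Hochberg adjusted p under 0.05 over all genes tested. Each SE given with an edgeR fold change was derived from the test. It is the size of the log2 fold change over the square root of the quasi-likelihood F statistic. Alternatives used DESeq2 1.42.0 and limma 3.58.1. Within-group pairs of libraries differed by 9.63 to 73.7 in chi-square per degree of freedom, so none was counted as the same library.

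Named genes were Nkx6-1 and Gsx1, the 12 largest rises and falls among called genes averaging 1 CPM or more, with groups without overlap and no predicted name, the 4 largest each way for the interaction and against Gsx1, and up to 4 members of smallest p in each of 23 lists; other members and called genes were chosen after their values were seen. Members and the 53 gene lists were chosen with earlier results of these data known. Coordinates are from GENCODE for GRCm38, 1-based.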

Additional observations from a re-analysis of the deposited data

Results flagged for a closer look

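For 24 genes the difference between Nkx6.1 and injured control cord at 3 days was not the same as at 35 days, by the edgeR test of the interaction (adjusted p between 0.0390 and 0.0491). They are part of the 376 genes called for the interaction (2.3%), picked for a large called change at 3 days or a large interaction. The interaction holds that same difference at 3 days, so their number is not a result of its own. The values are the log2 fold change at 3 days minus that at 35 days. Among genes of phagocytes and lysosomes they were 2.32 for Hfe, 2.22 for Abcc3, 1.91 for Adap2, 1.84 for Inpp5d, 1.57 for Mertk, 1.26 for Lgmn, 1.01 for Psap and 2.89 for Lyz2. They were 3.82 for Tlr8, a receptor for single-stranded RNA, 3.35 for Tmem82, 3.18 for Thbs1, 1.54 for Rab3il1, 0.99 for Rnpep, 0.96 for Tmem104 and 0.75 for Slc43a2. Tlr8 had 20.3, 18.9 and 8.78 CPM in Nkx6.1 libraries at 3 days, against 8.46, 2.06 and 6.23 CPM in controls.

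Of the genes lower at 3 days, the values were -3.16 for Ddn, -2.44 for Pcdhb8, -1.95 for Itih3, -1.66 for Tdrd6, -1.11 for Tlcd1, -1.09 for Ak4 and -0.98 for Slc15a2. Gadl1 had -2.5 and Foxb1 had -2.36. The interaction calls were lost when any of 8 single libraries was left out, as given above, and why was not tested.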

How the results depend on the processing

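The direction of the 117 genes followed over 18 to 20 alternatives held in each, while other genes given by level only, Gsx1 among them, were not followed. Where the groups do not overlap, leaving out libraries could hardly turn the direction. Scaling by DESeq2 size factors called 47 genes and library totals alone 59, close to 55, and their shares of higher genes were 24 of 47 and 22 of 59. The count at 3 days moved to 28 without the expression filter, 462 with DESeq2, 4539 with limma voom and sample weights, 1 with only the groups compared, 0 with only the libraries at 3 days, 568 with low-Xist libraries only (so without control replicate 1), 135 with Xist as a covariate, and 4 with H2-Bl and Rpl29 as covariates (Fam174b, Psd2, Slc15a2 and Slc5a11). Leaving out each library gave 0 to 2571. In alternatives chosen after seeing the data, it was 2684 without Nkx6.1 replicate 3 and control replicate 1, and 1 (Vegfa) without Nkx6.1 replicate 2 and control replicate 3, the libraries with muscle genes.

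The interaction, 376 genes, moved to 244 with library totals, 224 without the filter, 1265 with DESeq2, 4412 with voom, 0 with only the groups compared, with low-Xist libraries and with the H2-Bl and Rpl29 covariates, 799 with Xist as a covariate, 0 to 3614 with a library left out, and 3757 and 0 without those pairs of libraries. The 13 genes against Gsx1 moved to 135 with DESeq2, 5185 with voom, 0 with only the groups compared or the libraries at 3 days, 7 with the H2-Bl and Rpl29 covariates, and 0 to 1942 with a library left out. Called members of the 23 lists, 3 in all, numbered 1 without the filter, 36 with DESeq2, 199 with voom, 0 with fewer groups, 38 with low-Xist libraries, 10 with Xist as a covariate, 0 with H2-Bl and Rpl29, 0 to 136 with a library left out, and 135 and 1 without those pairs. Where edgeR called 0 genes, 828 to 3931 had an unadjusted p under 0.05.

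Same-numbered replicates of the groups did not deviate together (r = 0.23, -0.30 and 0.07), so the numbers were not taken as pairs. A replicate block over all groups called 105 genes at 3 days, 33 for the interaction and 6 list members, and within the groups compared only 1 (Gm5506), 0, 0 against Gsx1 and 0 members. The log2 fold change of Nkx6-1 stayed between -0.80 and -0.41 and was called in none. The cause of these moves was not tested. Depth limits genes at a few counts, such as Gsx1 with 1 to 9 counts in Nkx6.1 libraries and 3 to 7 in controls.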

Other observations

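Several lists not described above gave few genes at a low p. Of 16 reactive astrocyte genes, 2 had an unadjusted p under 0.05 with a positive fold change, 0 were called, and the median was 0.30 (log2), or 0.14 without Nkx6.1 replicate 2. Of 16 oxidative phosphorylation genes, 0 had such a p in either direction, with a median of -0.04 that ran from -0.17 without Nkx6.1 replicate 3 to 0.05 without Nkx6.1 replicate 1. Of 10 oligodendrocyte precursor genes, 2 were so higher, with a median of 0.09, or -0.0014 without Nkx6.1 replicate 1. Of 18 fibrotic scar genes 1 was, and the median of -0.20 ran from -0.50 without control replicate 2 to 0.17 without control replicate 1. Summed neutrophil markers stood at 113, 524 and 136 CPM in Nkx6.1 libraries, against 202, 325 and 345 CPM in controls, and none of the 11 tested had an unadjusted p under 0.05. Summed adipocyte markers stood at 56.3, 58.3 and 83.7 CPM in Nkx6.1 libraries, against 23.9, 10.7 and 19.2 CPM in controls, so every Nkx6.1 library was higher, while 1 of the 6 genes tested had an unadjusted p under 0.05.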
